A study of Mus musculus with 6 samples.

Results

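The 10 genes described here encode receptors for extracellular nucleotides and adenosine, and the ectonucleotidase CD39. They are P2rx1, P2rx3, P2rx4, P2rx7, P2ry1, P2ry2, P2ry12, P2ry14, Adora2a and Entpd1. They were taken by gene name from an expression array, all probes of each gene included, and they were chosen by earlier results of the same comparison, control siRNA against Mi2β siRNA, so their own differences, and how many passed a threshold in the fit over all genes, are given as a description and not as a test. The 10 genes are 10 of the 34964 genes and unnamed transcripts on the array, and 16 of its 55681 non-control probes.

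The study asked how transcription changes when Mi2β, the chromatin-remodelling ATPase encoded by Chd4, is depleted in cells in which the erythroid factor GATA-1 has been switched on. The cells were G1E-ER-GATA-1, a mouse erythroid precursor line that lacks its own GATA-1 and carries GATA-1 fused to the oestrogen receptor, so that β-estradiol activates the fusion. Both groups were this 1 line, were nucleofected with siRNA at 0 and 24 h, received β-estradiol at 24 h and were harvested at 48 h. The groups differ in the siRNA, non-targeting in the 3 control samples and Mi2β-specific in the 3 others. Each sample was 1 Cy3-labelled one-colour array made from 0.1 µg of RNA. The labels do not say that the replicates were separate cultures, so the spread between them, and every p-value below, may measure technical variation only. Because these are bulk samples, fewer cells of a type and less RNA per cell cannot be told apart.

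Cells release ATP and other nucleotides, which act on their own surface and on their neighbours. P2X receptors are channels that open when they bind ATP and pass sodium and calcium, whereas P2Y receptors and adenosine receptors couple to G proteins. Ectonucleotidases such as CD39 remove ATP and ADP, and the AMP they leave can be turned into adenosine, which ends one signal and starts another. In blood, these receptors are best known from platelets, where ADP and ATP drive activation, and from macrophages, where ATP drives inflammasome activation through P2rx7.

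The promoter sequences of the 4 members that differed most clearly between the groups are shown so that the changes described below can be read beside them. Each is the 250 bases before a transcription start annotated by RefSeq on GRCm38.p6, given 5′ to 3′ in the gene's direction. All 5 lie on the plus strand, and P2rx7 has 2 annotated starts. Capitals mark a GATA core, searched as AGATAA or TGATAA on both strands. The windows are P2rx7 start 1 at chr5:122643677-122643926, P2rx7 start 2 at chr5:122650133-122650382, P2rx4 at chr5:122707294-122707543, P2rx1 at chr11:72998895-72999144 and P2ry1 at chr3:61002535-61002784.
P2rx7 start 1: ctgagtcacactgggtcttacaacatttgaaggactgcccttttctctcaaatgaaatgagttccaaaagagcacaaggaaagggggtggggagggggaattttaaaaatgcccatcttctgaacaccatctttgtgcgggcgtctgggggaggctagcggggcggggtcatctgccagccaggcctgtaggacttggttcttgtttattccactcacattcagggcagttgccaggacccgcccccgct
P2rx7 start 2: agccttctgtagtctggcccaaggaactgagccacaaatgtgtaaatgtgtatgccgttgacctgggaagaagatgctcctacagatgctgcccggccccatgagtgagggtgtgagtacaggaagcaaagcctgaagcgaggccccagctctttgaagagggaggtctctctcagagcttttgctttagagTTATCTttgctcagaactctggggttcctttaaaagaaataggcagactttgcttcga
P2rx4: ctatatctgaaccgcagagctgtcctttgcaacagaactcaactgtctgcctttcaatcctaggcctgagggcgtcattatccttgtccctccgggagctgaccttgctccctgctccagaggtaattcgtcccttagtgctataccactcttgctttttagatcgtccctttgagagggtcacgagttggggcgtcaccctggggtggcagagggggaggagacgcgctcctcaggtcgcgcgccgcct
P2rx1: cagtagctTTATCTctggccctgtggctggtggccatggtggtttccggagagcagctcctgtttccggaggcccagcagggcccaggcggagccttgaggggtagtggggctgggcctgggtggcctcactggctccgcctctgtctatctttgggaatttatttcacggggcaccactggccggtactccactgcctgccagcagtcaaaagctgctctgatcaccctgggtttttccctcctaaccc
P2ry1: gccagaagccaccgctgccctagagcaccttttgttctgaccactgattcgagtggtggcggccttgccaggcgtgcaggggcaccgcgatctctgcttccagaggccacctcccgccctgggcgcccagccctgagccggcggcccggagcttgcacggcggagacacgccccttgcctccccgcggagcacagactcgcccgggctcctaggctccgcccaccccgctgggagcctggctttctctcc

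A GATA core stood in 2 of these 5 windows, both times as AGATAA on the opposite strand. In P2rx7 start 2 it lay 58 to 53 bases before the start, and in P2rx1 it lay 242 to 237 bases before it. P2rx7 start 1, P2rx4 and P2ry1 held neither form in these 250 bases. Over all 32851 RefSeq windows of the same length, 16.6% held a GATA core, so its presence is common. Among the members, 8 genes had 14 windows, and 4 of the 14 held a core, the other 2 being windows of P2ry14. CpG dinucleotides numbered 6 in P2rx7 start 1, 4 in P2rx7 start 2, 13 in P2rx4, 6 in P2rx1 and 20 in P2ry1, where the median window held 6. The matches are letters in a window and say nothing of whether a factor binds there. P2rx3 and Adora2a had no entry in the promoter table.

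Chd4, the siRNA target, was measured on every array. Its processed signal, the scanner's background-subtracted intensity, was 22660, 23040 and 21120 on the control arrays and 10940, 9537 and 9417 on the Mi2β siRNA arrays. On the log2 scale, after each array was set against its 75th percentile signal, Chd4 fell by 1.31 (SE 0.10), which is 2.48-fold (limma, Benjamini-Hochberg adjusted p = 0.00161).

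The share of probes well above background, the scanner's own test of a spot against its local background, ran from 53.05 to 56.44% on the control arrays. It was 61.24%, 73.98% and 48.48% on Mi2β siRNA replicates 1, 2 and 3, so calls near background were least even in that group. No spot was saturated on any array. Genes were tested where at least 1 probe was well above background on 3 or more of the 6 arrays. Of 22133 genes tested with limma, 1105 (4.99%) rose and 1010 (4.56%) fell at an adjusted p below 0.05. When arrays were scaled to their medians instead, the median change of all genes moved from -0.03 to -0.27 on the log2 scale, and 59.7% rather than 52.2% of the called genes were rises.

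Of the 10 members, 6 passed the filter and entered the fit over all genes. P2rx1, P2rx4 and P2rx7 were higher and P2ry1 was lower past its threshold, and P2rx3 and Adora2a were not past it. P2ry2, P2ry12, P2ry14 and Entpd1 were too close to background to enter. The 3 higher members were also higher on every Mi2β siRNA array than on every control array, which held for 12.7% of all tested genes. P2ry1 was lower on every Mi2β siRNA array, which held for 18.4% of them. These shares, and the 4.99% and 4.56% above, are given as background only, and nothing is read from the counts, since the members were selected on this contrast.

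**Figure D1:**
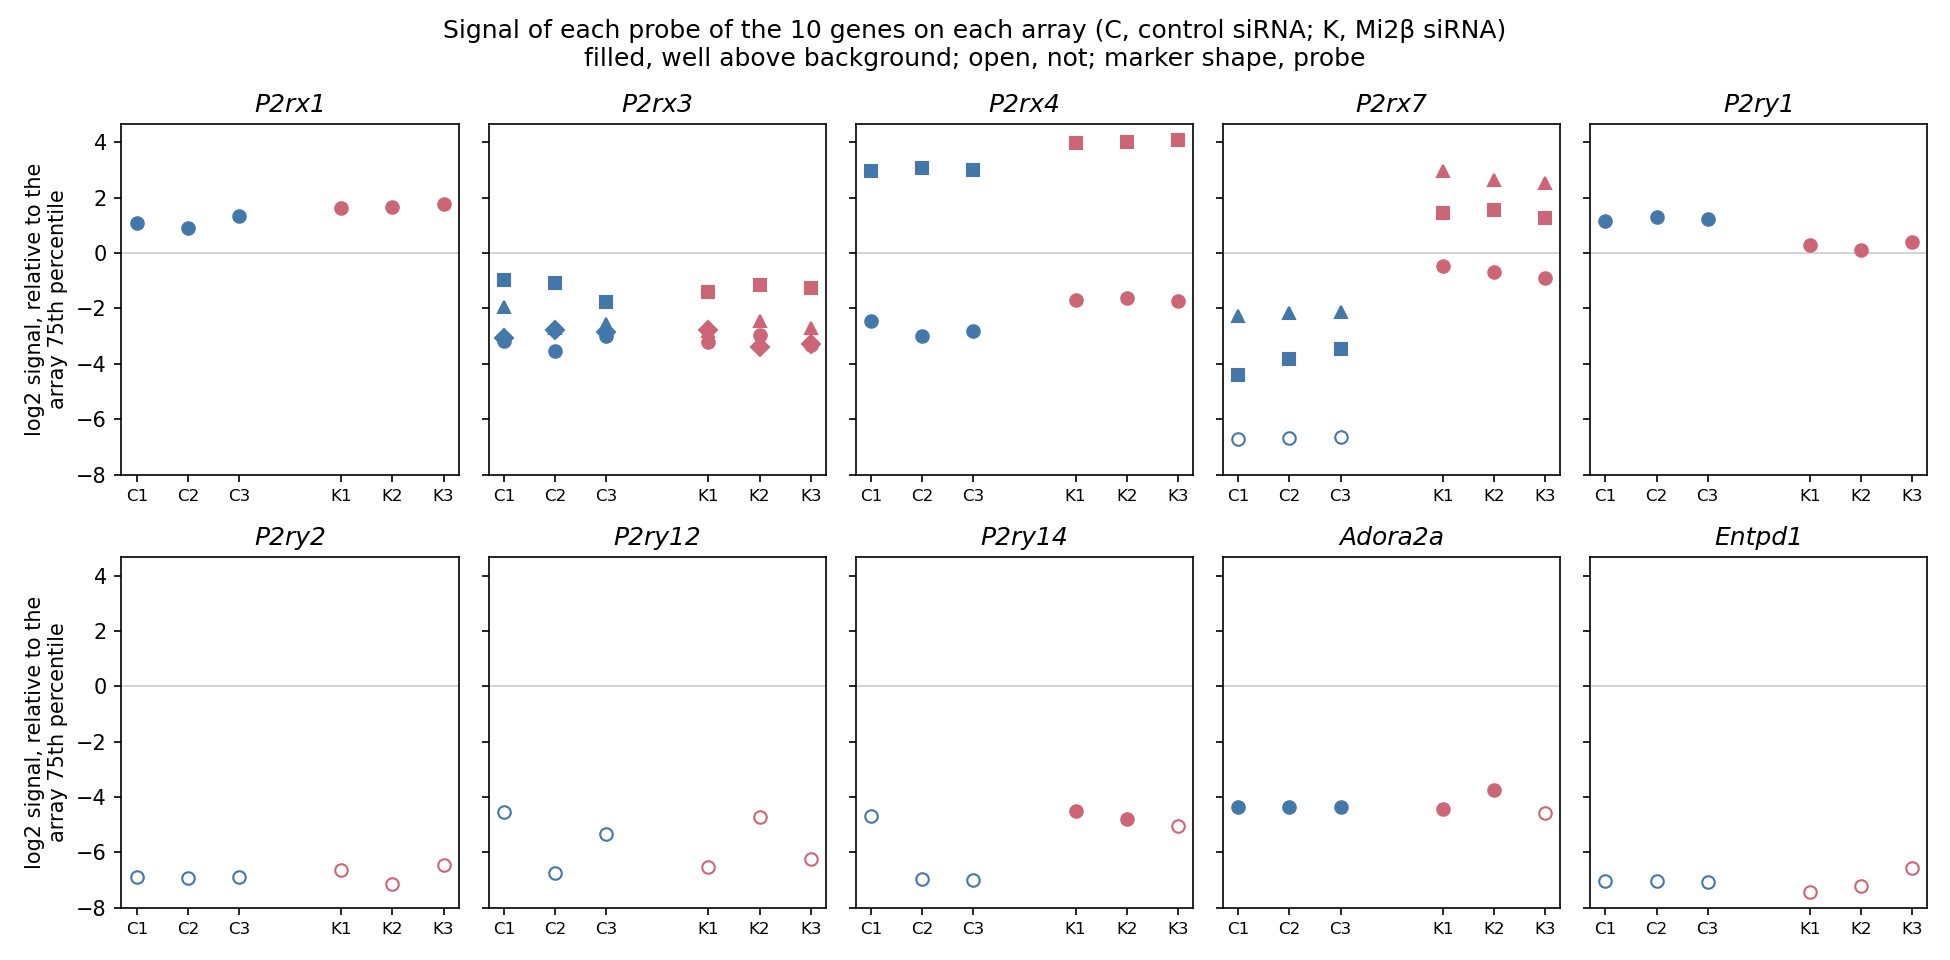
Processed signal of every probe of the 10 genes on each array, on a log2 scale relative to the array's 75th percentile; blue is control siRNA, red is Mi2β siRNA, the marker shape is the probe and open symbols are not well above background. All P2rx7 probes are higher on the 3 Mi2β siRNA arrays, P2rx4 and P2rx1 are higher by less, P2ry1 is lower, and P2ry2, P2ry12 and Entpd1 are open throughout; levels of different probes are not comparable.

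P2rx7, the ATP-gated channel that macrophages use to sense high extracellular ATP, had the largest difference of the members. The array carried 3 P2rx7 probes, placed along the gene on mm9 and annotated to different RefSeq transcripts. The first probe, at chr5:123105174-123105233, read 75.9, 80.7 and 89.2 on the control arrays and 3426, 2441 and 2355 on the Mi2β siRNA arrays. Every Mi2β siRNA array thus lay far above every control array, and the closest pair was 4.68 apart on the log2 scale. The difference was 4.90 (SE 0.14), or 29.9-fold, the 11th largest of the 22133 tested genes in either direction. The mean log2 level relative to the 75th percentile moved from -2.19 ± 0.08 to 2.71 ± 0.21 (SD, n = 3), from below the array's 75th percentile to above it.

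The third probe, at chr5:123134194-123134253, read 17.5, 25.1 and 35.9 on the control arrays and 1218, 1149 and 983 on the Mi2β siRNA arrays. Its difference was 5.33 (SE 0.25), or 40.1-fold, and the control arrays were more spread here than at the first probe (SD 0.48 against 0.08). Both end probes were well above background on all 6 arrays, so a low P2rx7 signal was measured in the control cells.

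The second probe is shown because it lies across an exon junction and so reads spliced RNA. Its 60 bases map to chr5:123120528-123123413 on mm9, plus strand, with 2826 genomic bases skipped between its ends.
P2rx7 junction probe: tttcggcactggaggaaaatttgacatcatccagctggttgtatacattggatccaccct
It read 3.51, 3.47 and 3.94 on the control arrays, where no array placed it well above background, and 325, 248 and 214 on the Mi2β siRNA arrays, where it was well above background on all 3. Set against the lowest signal of any probe that counted as well above background on each control array, P2rx7 was 17.4-fold higher by this probe. This limit is taken over all probes, so a probe's own limit may lie higher and the fold is not a strict lower bound. All 3 probes were thus higher on every Mi2β siRNA array, and Mi2β siRNA replicate 1 was the highest of its group at each probe before scaling.

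**Figure D2:**
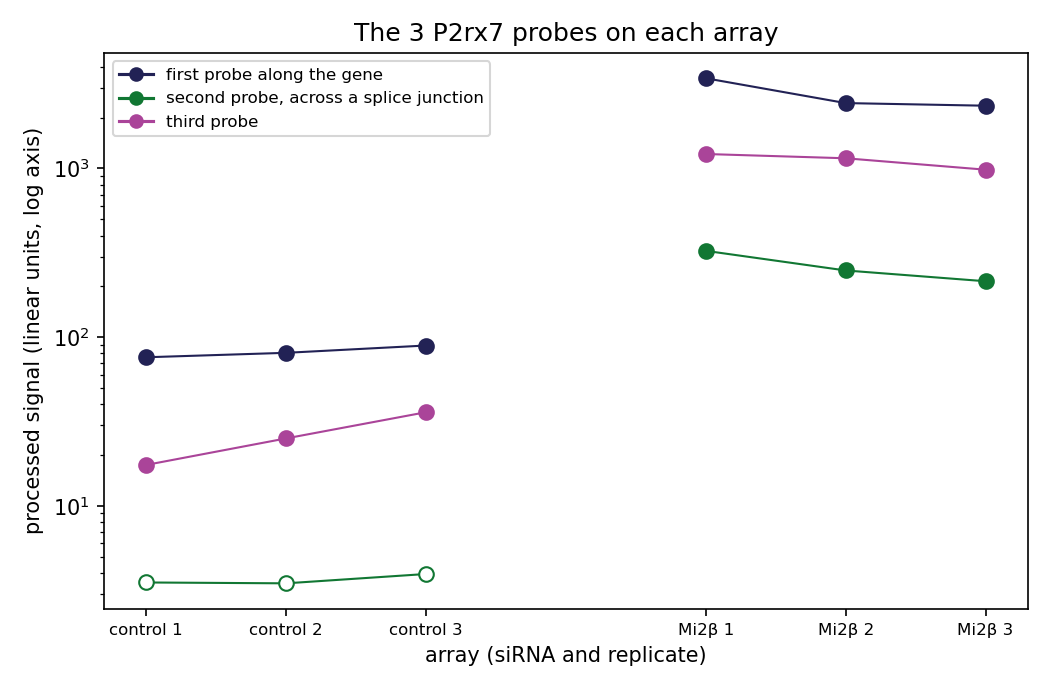
Processed signal of the 3 P2rx7 probes on each array, on a log axis, with lines joining arrays of 1 group; open symbols are not well above background. Each probe's Mi2β siRNA values lie above all of its control values, from 75.9 to 89.2 against 2355 to 3426 for the first probe; the heights of different probes are not comparable.

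P2rx4, an ATP-gated channel that is strongly permeable to calcium and is kept largely on lysosomes, lies next to P2rx7 in the same orientation. The last P2rx7 probe and the first P2rx4 probe are 44729 bases apart on mm9. The brighter P2rx4 probe, at chr5:123178983-123179042, read 2871, 2990 and 3148 on the control arrays and 7047, 6376 and 6863 on the Mi2β siRNA arrays. The groups did not overlap, and the difference was 1.02 (SE 0.09), or 2.03-fold. Its replicates were among the tightest of the members, with an SD of 0.05 in each group.

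The other P2rx4 probe, at chr5:123179545-123179604, starts 562 bases further along. It read 67.8, 44.7 and 56.3 on the control arrays and 136, 129 and 122 on the Mi2β siRNA arrays, a difference of 1.07. The P2rx4 probes therefore gave nearly the same difference, 0.05 apart on the log2 scale. Over 17 alternative analyses the P2rx4 difference ran from 0.79, with arrays scaled to their medians, to 1.09. P2rx4 was not past the threshold in 1 of the 17, median scaling.

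P2rx1, the ATP-gated channel of platelets and smooth muscle, had 1 probe, at chr11:72828564-72828623. It read 788, 672 and 986 on the control arrays and 1379, 1252 and 1390 on the Mi2β siRNA arrays. The groups did not overlap, but the control arrays were spread widely (SD 0.21 on the log2 scale, against 0.08 in the Mi2β siRNA group). The difference was 0.59 (SE 0.13), or 1.5-fold. Over the 17 alternatives the P2rx1 difference ran from 0.35, with arrays scaled to their medians, to 0.70, without control replicate 3. It was not past the threshold in 10 of the 17.

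P2rx3, the ATP-gated channel of sensory neurons, had 4 probes on chromosome 2, all well above background on all 6 arrays. The probe at chr2:84837707-84837766 read 190, 168 and 117 on the control arrays and 167, 177 and 168 on the Mi2β siRNA arrays. The groups overlapped, and the difference was -0.01 (SE 0.22). A second probe, at chr2:84838898-84838957, was printed at 10 spots on each array. The medians of its spots were 41.4, 28.8 and 49.2 on the control arrays and 46.8, 52.6 and 42.5 on the Mi2β siRNA arrays, and its spots within an array varied by 13.5 to 25.3% (coefficient of variation). Over the 4 probes the differences ran from -0.26 to 0.08, with no common direction.

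P2ry1, the G protein-coupled ADP receptor that starts platelet shape change, was the member that was lower. Its probe, at chr3:60812600-60812659, read 830, 897 and 913 on the control arrays and 538, 427 and 534 on the Mi2β siRNA arrays. The groups did not overlap, and the difference was -0.97 (SE 0.11), which made the control level 1.96-fold the Mi2β siRNA level. The mean log2 levels were 1.23 ± 0.08 and 0.26 ± 0.14 (SD, n = 3). P2rx1 and P2ry1, which act together on platelets, thus differed in opposite directions in these cells.

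The other 3 P2Y receptor genes gave little signal. P2ry2, a receptor for ATP and UTP, read 3.1, 2.97 and 3.34 on the control arrays and 4.43, 2.83 and 4.67 on the others, and none of the 6 arrays placed it well above background. P2ry12, the platelet ADP receptor blocked by clopidogrel, read 15.8, 3.39 and 9.81 against 4.76, 14.8 and 5.32, and again no array placed it well above background. These values show no more than that any P2ry2 or P2ry12 RNA was below what the array measures.

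P2ry14, a receptor for UDP-sugars, read 14.2, 2.85 and 3.06 on the control arrays and 19.7, 14.4 and 12.4 on the Mi2β siRNA arrays. It passed the background test on replicates 1 and 2 of the Mi2β siRNA group and in none of the control samples, 1 array short of the number needed to enter the fit. The groups overlapped, because control replicate 1 lay above Mi2β siRNA replicate 3. Against the background limit the Mi2β siRNA mean was 1.00-fold the control mean, which is no measured difference.

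Adora2a, an adenosine receptor that raises cyclic AMP, read 18.3, 17.6 and 19.0 on the control arrays and 20.6, 29.3 and 17.1 on the Mi2β siRNA arrays. The probe was well above background on all 3 control arrays and on Mi2β siRNA replicates 1 and 2. The difference was 0.11 (SE 0.22) with overlapping groups, and its sign turned in 4 of the alternatives, to -0.21 under quantile normalization, -0.14 without Mi2β siRNA replicate 2, -0.13 under median scaling and -0.03 with normexp background correction. Entpd1, which encodes CD39, read 2.85, 2.75 and 2.94 against 2.57, 2.67 and 4.25 and never passed the background test, so its level was not measured in either group.

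The rest of purine signalling was read from a list of 45 other genes, all of them on the array and 22 of them tested. Of these, 4 rose, 1 fell and 17 did not pass the threshold (22.7% changed, against 9.56% of all tested genes), and the median change was -0.05. The list was written with earlier results of these data known, so the count is a description. The genes that moved were Adora3, Slc29a1, Enpp3, Slc17a9 and Il1b.

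Among 12 other receptors, 4 were tested and Adora3 rose. Adora3 encodes an adenosine receptor that mast cells carry. It read 948, 925 and 1230 on the control arrays and 2895, 2951 and 3321 on the Mi2β siRNA arrays. That is a rise of 1.43 (SE 0.14, limma adjusted p = 0.00298), which held in all 17 alternatives. P2rx2, the partner of P2rx3 in heteromeric channels, differed by -0.02 (SE 0.15), and Adora2b by 0.03 (SE 0.16). P2ry4, P2ry6, P2ry10, P2ry13, Gpr17 and Adora1 did not pass the background test on any of the 6.

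Of 12 other ectonucleotidases and related phosphatases, 5 were tested and Enpp3 rose. Enpp3, a surface enzyme that splits ATP to AMP and marks basophils, read 21.6, 22.4 and 27.4 on the control arrays and 57.3, 42.7 and 54.3 on the others. The rise was 0.96 (SE 0.13, limma adjusted p = 0.00871), and its call was lost in 5 of 17 alternatives, including the fit without Mi2β siRNA replicate 1. With normexp background correction its rise was 0.32. Entpd4, which acts inside the cell, differed by -0.29 (SE 0.14, limma adjusted p = 0.285). Nt5e, which encodes the enzyme that turns AMP into adenosine after CD39, was too close to background on all 6 arrays to be tested.

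The 7 nucleoside transporters were all tested, and 1 rose. Slc29a1, the equilibrative transporter that carries adenosine across the red cell membrane, read 6466, 5778 and 6339 on the control arrays and 16030, 13630 and 11850 on the Mi2β siRNA arrays. The rise was 1.00 (SE 0.12), or 2.01-fold (limma adjusted p = 0.00538), and its call was lost in 1 of 17 alternatives, median scaling. Among the 3 purine enzymes, Adk differed by 0.13 (SE 0.11) and Pnp by -0.31 (SE 0.10, limma adjusted p = 0.14).

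ATP release was represented by 5 genes, of which only Slc17a9, the vesicular nucleotide transporter, was tested. It read 31.1, 26.9 and 30.2 on the control arrays and 53.1, 45.5 and 40.7 on the others, a rise of 0.51 (SE 0.11, limma adjusted p = 0.0428). This call was lost in 14 of 17 alternatives, including the fit without any 1 of the 6 arrays. The channel genes Panx1 and Panx2 were too close to background to be tested.

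Of 6 inflammasome genes, which act after P2rx7 in macrophages, 3 were tested and none rose. Il1b, the cytokine precursor that is released after P2rx7 opens, read 1292, 1146 and 1099 on the control arrays and 579, 514 and 569 on the Mi2β siRNA arrays. It fell by 1.23 (SE 0.11, limma adjusted p = 0.00264), with the same call in all 17 alternatives. Nlrp3 differed by -0.28 (SE 0.17, limma adjusted p = 0.405) and Pycard by 0.13 (SE 0.11, limma adjusted p = 0.564), and Casp1 stayed near background throughout.

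**Figure D3:**
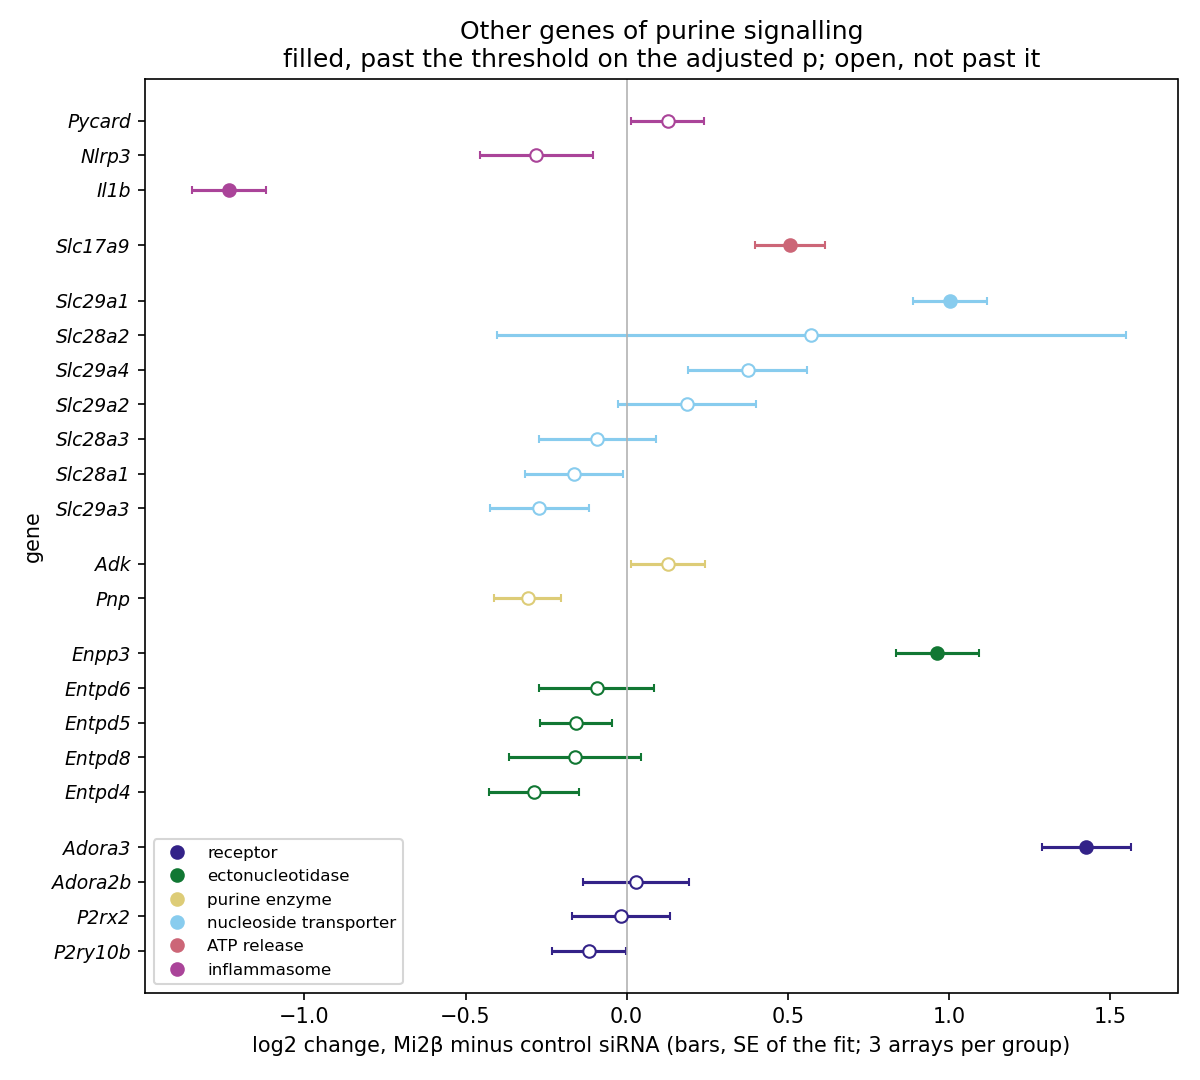
Log2 change of the 22 tested genes of the purine signalling list, Mi2β siRNA minus control siRNA, with bars for the SE of the fit (3 arrays per group) and colours for the class of gene. Adora3, Slc29a1, Enpp3 and Slc17a9 lie to the right with filled symbols, past the threshold, and Il1b lies to the left.

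The genes next to each member on its chromosome were read in the same way, 3 on each side in RefSeq order. Of 50 such genes 33 were tested, and 6 rose, 2 fell and 25 did not pass the threshold (24.2% changed, against 9.56% of all tested genes). Prg3, below, is counted among the rises but passed the filter only through the Mi2β siRNA arrays; without it 5 of 32 rose. The median change of the 33 was 0.00.

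Around P2rx7 and P2rx4, none of the 6 neighbours passed the threshold in limma, and 1 of them, Ift81, had an unadjusted p under 0.05. Ift81, just before P2rx7, differed by -0.32 (SE 0.09, limma adjusted p = 0.0839), and Camkk2, just after P2rx4, by -0.09 (SE 0.11, limma adjusted p = 0.676). Atp2a2, Anapc7, Anapc5 and Rnf34 had differences between -0.11 and 0.01. No gene flanking the pair thus showed a rise past the threshold.

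Around P2rx1, 3 of 5 tested neighbours rose, among them the nearest gene on each side. Atp2a3, a calcium pump of the endoplasmic reticulum, read 361, 326 and 374 on the control arrays and 864, 765 and 769 on the Mi2β siRNA arrays, a rise of 1.03 (SE 0.08, limma adjusted p = 0.0018). Camkk1, a kinase that activates calmodulin-dependent kinases, read 300, 302 and 281 against 893, 731 and 870, a rise of 1.35 (SE 0.11, limma adjusted p = 0.0018). Both calls were lost under median scaling, where the SE of each was 0.37, and both held in the other 16 alternatives. Ncbp3, one gene further, rose by 0.60 (SE 0.12, limma adjusted p = 0.0292), a call lost in 11 of 17 alternatives. On the other side, beyond Atp2a3, Zzef1 differed by 0.15 (SE 0.11, limma adjusted p = 0.499) and Cyb5d2 by -0.29 (SE 0.10, limma adjusted p = 0.133), the latter lower on every Mi2β siRNA array.

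Beside P2rx3, Tnks1bp1 rose and Slc43a3 fell, and Prg3 was measured in 1 group only. Prg3, a granule protein of eosinophils, read 12.2, 14.0 and 16.0 on the control arrays, where it never passed the background test, and 160, 141 and 139 on the Mi2β siRNA arrays. Against the background limit of the control arrays Prg3 was 9.16-fold higher, near its fitted 9.45-fold. That figure is no lower bound, since it rests largely on control signals that failed the background test. Prg3 entered the fit only through the group where it was high, so its call is no test. Its fitted difference of 3.24 became 1.28 with normexp background correction. Tnks1bp1 rose by 1.74 (SE 0.12, limma adjusted p = 0.00108) and kept its call in all 17 alternatives, although the rise was 0.76 with normexp background correction. Slc43a3 fell by 0.59 (SE 0.11, limma adjusted p = 0.0258), a call lost in 9 of 17. Fchsd2 beside P2ry2 rose by 0.83 (SE 0.16, limma adjusted p = 0.0269), a call lost in 9 of 17.

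**Figure D4:**
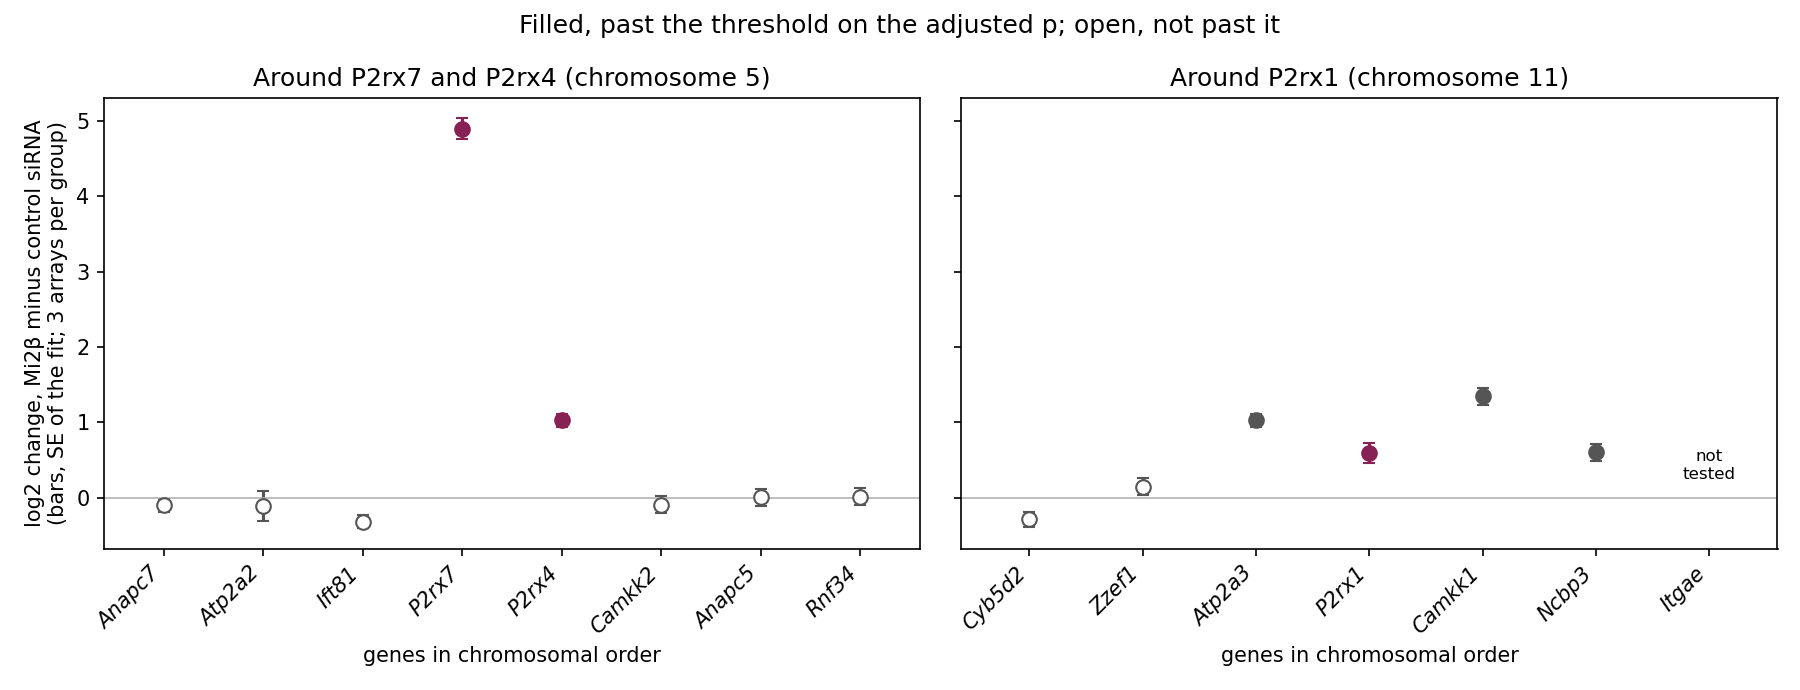
Log2 change, Mi2β siRNA minus control siRNA, of the genes around P2rx7 and P2rx4 (left) and around P2rx1 (right) in chromosomal order, with bars for the SE of the fit (3 arrays per group); members are purple and filled symbols passed the threshold. On the left only the 2 receptor genes are filled, at 4.90 and 1.02; on the right Atp2a3, P2rx1, Camkk1 and Ncbp3 are filled, from 0.59 to 1.35, and Itgae was not tested.

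The genes whose profile over the 6 arrays was most like that of P2rx7 were Lysmd4, with a root mean square difference of 0.15 on the log2 scale, the embryonic globin gene Hbb-y (0.17) and Ssh3 (0.24). Their own differences were 4.87, 4.89 and 5.26. For P2ry1 they were Aldh1a1 (0.03), Rnf11 (0.04) and Dipk1a (0.04). The measure mostly finds genes with a difference of the same size.

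Several members are markers of platelets or macrophages, so the marker genes of the cell types concerned were read beside them. All 9 erythroid markers, Hba-a1, Alas2 and Klf1 among them, were well above background on all 6 arrays, and 2 of them rose and 2 fell. Of 8 macrophage markers, 5 were well above background on all control arrays and 4 on all Mi2β siRNA arrays, and Lyz2 was not on any. Cd68 rose by 0.53 (SE 0.10, limma adjusted p = 0.0305), and Adgre1 and Csf1r differed by -0.15 and -0.33 without passing. Their summed level, in units of each array's 75th percentile signal, ran from 17.0 to 21.8 in the control group and from 21.1 to 22.5 in the Mi2β siRNA group. Itgam made up 78.4 to 83.0% of that sum, and it differed by 0.14 without passing (limma adjusted p = 0.607).

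Of 8 megakaryocyte markers, 6 were well above background on all arrays of both groups, and Ppbp was not on any. On the log2 scale Gp9 fell by 2.18, Pf4 fell by 1.62 and Gp1ba fell by 0.63, whereas Treml1 rose by 1.58. The summed level ran from 41.2 to 47.4 in the control group and from 22.0 to 27.2 in the Mi2β siRNA group, the direction of P2ry1 and opposite to that of P2rx1. Pf4 made up 38.5 to 68.3% of it. Of 6 mast cell markers, 3 were well above background on all control arrays and 4 on all Mi2β siRNA arrays, and Fcer1a and Mcpt8 were not on any. Tpsab1 was above it on the Mi2β siRNA arrays only, 2.57-fold higher against the background limit of the control arrays, which is not a strict lower bound. It entered the fit only through the group where it was high, so its call there, a rise, is no test. The summed level of the mast cell markers ran from 6.27 to 7.82 in the control group and from 8.55 to 9.63 in the Mi2β siRNA group, the direction of Adora3 and Enpp3. Kit made up 90.8 to 92.7% of that sum and differed by 0.40 without passing (limma adjusted p = 0.117). Among 4 neutrophil, 4 T cell and 3 B cell markers, 1, 2 and 1 were well above background on all 6 arrays, and none of these passed the threshold in limma, nor an unadjusted p of 0.05. The part of such cells in the differences of the members and of these genes was not tested.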

How the data were processed

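Total RNA of 6 samples was hybridised to one-colour Agilent arrays. Processed signal, an intensity that Agilent Feature Extraction 10.7.3.1 corrects for background, and its flags for spots well above background were used as deposited, per the file headers. Agilent Feature Extraction and limma are named in the submitters' processing notes. All arrays shared 1 slide and 1 scan. From these files, outlier-flagged spots were dropped, log2 signal minus the array's 75th percentile over non-control spots was averaged per probe, and each gene was represented by its brightest probe among those well above background on at least 3 of 6 arrays. limma 3.58.1 (R 4.3.3) compared the groups over 22133 genes, with Benjamini-Hochberg adjustment. The deposited value table, which held the same processed signal on a linear scale, was used as an alternative. On simulated data with 200 changed genes the fit recovered 48% of 2-fold and 72% of 4-fold changes, with 7 false calls.

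The members, gene lists and markers were chosen with earlier results of these data known. Genes were named by rule: all members, listed genes and neighbours past the threshold, and the 3 profiles most like P2rx7 and P2ry1. Other listed genes and neighbours were named without a strict order by control level. Probe positions are mm9, per the file headers; exon and UTR annotation of that build was not used here. The values of 1 neighbouring gene are not reported here.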

Additional observations from a re-analysis of the deposited data

How the results depend on the processing

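The members' counts below are a description, since the members were selected on this contrast. The P2rx7 difference was 4.09 with normexp background correction, and that of P2ry1 ran from -1.20 to -0.87 over 17 alternatives. P2ry1 was not past the threshold in 1 of them, the replicate block. Chd4 kept its call in all 17 (-1.54 to -1.23, limma adjusted p from 1.93e-05 to 0.027). Array median scaling left 831 called genes, 2 members, 2 listed pathway genes and 3 neighbours, against 2115, 4, 5 and 8. Under that scaling the same SE, 0.37, was fitted for Chd4, the tested members and the pathway genes and neighbours called in the main fit. Without the detection filter 993 genes and 4 neighbours were called. An intensity trend gave 3306 genes, and quantile normalization 3 pathway genes. Slide row 1 alone, with 2 arrays per group, gave 720 genes, 3 pathway genes and 4 neighbours. Leaving out 1 array in turn gave 813 to 1579 genes, 3 to 4 pathway genes, 4 to 7 neighbours and 3 to 4 members; the lowest count of genes was without Mi2β siRNA replicate 1. With the replicate block, 685 genes, 3 pathway genes, 4 neighbours and 2 members (P2rx4 and P2rx7) were called. Each array's deviations from its own group mean were correlated across genes between the groups. The deviations of same-numbered samples correlated at 0.206, -0.319 and 0.132, and those of differently numbered ones at -0.408 to 0.323. The log2 signals themselves correlated at 0.9795 to 0.9872 between groups. These correlations cannot tell whether same-numbered samples were handled together. The cause of the changes in these counts was not tested. P2ry2, P2ry12, P2ry14 and Entpd1 are limited by signal near background, and the number of arrays limits precision.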

Other observations

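The genes around P2rx1 on chromosome 11 and around P2rx7 and P2rx4 on chromosome 5 are relatives of each other, which was noticed after the values were seen. Each locus sets P2X receptor genes between an endoplasmic reticulum calcium pump gene, Atp2a3 or Atp2a2, and a calmodulin-dependent kinase kinase gene, Camkk1 or Camkk2, with Ift81 also lying between Atp2a2 and P2rx7. On chromosome 11 the pump and the kinase rose beside P2rx1, Atp2a3 by 1.03 (SE 0.08) and Camkk1 by 1.35 (SE 0.11). On chromosome 5 the receptors differed by 4.90 and 1.02 and the pump and kinase by -0.11 (Atp2a2, SE 0.20) and -0.09 (Camkk2, SE 0.11), neither past the threshold. Whether the loci differ was not tested.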
